A study of Mus musculus with 3 samples.

Results

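Sarcoplasmic reticulum calcium cycling, represented by the 10 genes Pln, Atp2a2, Ryr2, Casq2, Trdn, Slc8a1, Camk2d, Hrc, Jph2 and Cacna1c, was followed in single heart cells of tamoxifen-treated mice. The genes were taken by name, 10 of the 55401 mouse genes in the count tables, and each was present in all 3 libraries. They, and the lists of other calcium handling genes used below, were chosen with earlier results of these data known. Heart cells were dispensed into nanowells on the iCELL8 platform, and wells with 1 live cell by Hoechst and propidium iodide imaging were sequenced. The groups were 1 library after 1 day and 1 after 2 days, both with the genotype label INO80_OE, and 1 library after 3 days that carries the labels D3_INO80_OE and D3_Ctrl together. The cell type label of all 3 is adult cardiomyocyte. By the title of the series the mice were Myh6-MCM;Ino80fl/fl, which joins a Cre recombinase that tamoxifen switches on under the promoter of a cardiomyocyte myosin gene with a floxed Ino80 allele, whereas the genotype labels and the design text speak of Ino80 overexpression and induction. Ino80 encodes the ATPase of the INO80 chromatin remodelling complex. No source used here gives the number or age of the mice or the tamoxifen dose, and day 0, named in the design text, was not analysed here.

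In the files used here the day 3 wells are not assigned to a genotype. They were therefore split by their own Ino80 level, into 399 Ino80-high wells with at least 1000 CPM of Ino80 (counts per 1000000 counts) and 444 Ino80-low wells with less than 100 CPM, with 46 wells between. The Ino80-high wells had 3037 CPM of Ino80 and the Ino80-low wells 18.1 CPM. Neither set is called by a genotype label below. CPM was taken over nuclear-encoded genes, from counts summed over wells. The wells used were the cardiomyocyte compartment, that is, wells outside clusters named for a cell type other than cardiomyocytes. It held 575, 634 and 889 wells on days 1, 2 and 3, of which 22, 0 and 4 were in a cluster named for atrial cardiomyocytes. With 1 library a day there were no replicates, so no test was possible and every difference is between these libraries or sets of wells. Intervals are exact 95% intervals that cover counting error only.

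At each heartbeat, calcium that enters through the L-type channel of the surface membrane opens the ryanodine receptor of the sarcoplasmic reticulum, and the calcium released from this store starts contraction. Relaxation follows when the calcium ATPase SERCA2 pumps calcium back into the store under the brake of phospholamban, while the sodium-calcium exchanger carries the rest out of the cell. Calsequestrin and other proteins of the store lumen buffer the calcium near the release channel, and junctophilin holds the store against the surface membrane. In failing hearts this cycle is known to slow, and lower SERCA2 is a textbook feature of heart failure.

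The libraries held 1232, 1063 and 1099 wells on days 1, 2 and 3, with total counts of 452070922 to 487461107, and 18 wells were left out by the filters on depth. Well barcodes were shared between libraries, 247 to 278 for each pair and 67 for all 3, and what the sharing reflects was not tested. The mitochondrial share of counts differed, with medians of 40.7%, 43.7% and 21.3% per compartment well on days 1, 2 and 3, and of 19.6% in Ino80-high and 22.3% in Ino80-low day 3 wells. Median counts per well were 306900 in the Ino80-high wells and 436786 in the Ino80-low wells. The 12 ventricular cardiomyocyte markers were all detected in every group, and their summed level was 103534 CPM in Ino80-high and 159337 CPM in Ino80-low wells, against 137478 to 142644 CPM in the 3 libraries. Over the 3 days the same sum was 114192 to 117549 CPM in macrophage-like, 118280 to 119694 CPM in fibroblast-like and 126387 to 138241 CPM in endothelial-like wells. The sum by itself therefore does not tell compartment wells from these, and the list was not used to name clusters. In the clustering, 99.2% of Ino80-high day 3 wells were in cluster 12 and 98.0% of Ino80-low wells in cluster 5, whereas 89.4% of day 1 wells were in cluster 2 and 94.5% of day 2 wells in cluster 3. Clusters 2 and 3, each mostly of 1 library, may be the library and not a cell type. Clusters 5 and 12 were both mostly of the day 3 library, with 466 of 481 and 410 of 414 wells from it.

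In mm10 coordinates of GENCODE M21, the 10 genes lie on 8 chromosomes. Identifiers are given as in the count tables, and that of Cacna1c in GENCODE M21 is ENSMUSG00000051331.15. Pln (ENSMUSG00000038583.13, chr10:53337667-53345987, plus strand) and Hrc (ENSMUSG00000038239.11, chr7:45335290-45338974, plus strand) are compact genes. Atp2a2 (ENSMUSG00000029467.15, chr5:122453513-122502225, minus strand), Casq2 (ENSMUSG00000027861.13, chr3:102086415-102146514, plus strand) and Jph2 (ENSMUSG00000017817.11, chr2:163336242-163397993, minus strand) are of middle size. Ryr2 (ENSMUSG00000021313.16, chr13:11553102-12106945, minus strand), Trdn (ENSMUSG00000019787.9, chr10:33080554-33476709, plus strand), Slc8a1 (ENSMUSG00000054640.15, chr17:81373105-81738377, minus strand), Camk2d (ENSMUSG00000053819.16, chr3:126596302-126846326, plus strand) and Cacna1c (ENSMUSG00000051331.16, chr6:118587240-119196418, minus strand) are the longest of the 10, with Cacna1c spanning 609179 bases. Exons of Pln overlap those of Gm47644 over 1644 bases and of Cep85l over 141 bases on the opposite strand, exons of Atp2a2 overlap Gm43361 over 83 bases, and exons of Slc8a1 overlap AC122399.1 over 296 and Gm11096 over 8 bases. The strand setting of the counting is not given in the sources used here, so reads of such pairs could not be told apart. Gm43361 had 2.20 CPM in Ino80-high and 28.4 CPM in Ino80-low wells, Gm47644 at most 6.66 CPM and Cep85l at most 15.6 CPM in any group, AC122399.1 no counts and Gm11096 at most 2 counts.

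RefSeq promoter windows on GRCm38.p6 were available for 8 of the 10 genes; the windows of Atp2a2 and Trdn were not used here. The 250 bases before the annotated start are printed for 4 genes, Pln as the gene with the widest difference on day 3, Hrc and Slc8a1 because they share a motif with it, and Ryr2 as a gene without that motif. Capitals mark GATAA or its reverse complement TTATC, the core of sites read by GATA factors, and in Pln also TATAAA.
Pln, chr10:53337436-53337685, plus strand: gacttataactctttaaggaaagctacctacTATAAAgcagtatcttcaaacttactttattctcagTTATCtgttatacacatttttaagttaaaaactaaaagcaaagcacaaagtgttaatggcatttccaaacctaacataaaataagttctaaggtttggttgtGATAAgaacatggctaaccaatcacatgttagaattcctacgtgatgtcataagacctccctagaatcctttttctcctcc
Hrc, chr7:45335019-45335268, plus strand: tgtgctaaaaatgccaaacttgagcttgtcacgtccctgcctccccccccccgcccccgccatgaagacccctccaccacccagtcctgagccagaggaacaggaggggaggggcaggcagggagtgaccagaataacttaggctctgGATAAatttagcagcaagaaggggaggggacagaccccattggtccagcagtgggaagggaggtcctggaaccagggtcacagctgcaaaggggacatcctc
Slc8a1, chr17:81738388-81738637, minus strand: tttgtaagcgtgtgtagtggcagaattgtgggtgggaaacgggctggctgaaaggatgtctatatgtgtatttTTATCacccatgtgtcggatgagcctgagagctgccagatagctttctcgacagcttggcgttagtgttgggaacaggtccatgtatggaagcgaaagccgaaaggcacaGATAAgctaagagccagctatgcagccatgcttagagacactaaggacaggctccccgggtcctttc
Ryr2, chr13:12106946-12107195, minus strand: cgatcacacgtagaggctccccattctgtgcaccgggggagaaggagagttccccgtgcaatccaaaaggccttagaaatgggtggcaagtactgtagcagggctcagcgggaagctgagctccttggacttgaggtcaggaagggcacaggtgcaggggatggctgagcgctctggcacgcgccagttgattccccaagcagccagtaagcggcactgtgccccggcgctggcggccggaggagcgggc
The Pln window has 32.8% G and C bases, Hrc 59.6%, Slc8a1 50.4% and Ryr2 63.2%, against a median of 52.4% over 32536 promoter windows of the same length. GATAA on either strand was in the windows of Pln (2 matches), Slc8a1 (2) and Hrc (1), 3 of the 11 windows of these genes, and 22.5% of all windows hold it. TATAAA on either strand was in Pln alone among these genes and in 12.3% of all windows. The E-box CANNTG was in 10 of the 11 windows and in 66.2% of all windows. These 11 windows are of 8 genes, and those of Jph2 overlap, so the same site can be counted more than once. The MEF2 motif, the SRF CArG box and the M-CAT motif CATTCC, searched on both strands, were in none of the 11 windows and in 0.513%, 1.48% and 12.6% of all windows. These are matches of letters, not measured binding.

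On day 3 all 10 calcium cycling genes were lower in Ino80-high than in Ino80-low wells, and 9 of them were at least 2-fold lower. Of 5991 genes measured in this comparison, 11.6% were at least 2-fold lower, 23.1% were higher by that much, and 39.8% were lower by any amount. Because the 10 genes were chosen with earlier results of these data known, setting them against these shares is no test of the set. The median log2 ratio of the 10 genes was -1.78, whereas that of all genes was 0.26. The widest counting interval of any of the 10 log2 ratios reached 0.08 to either side. The differences ran from -4.12 for Pln to -0.90 for Camk2d, so the genes shared a direction and not a size. Another scaling, by the median of ratios over all counted genes, moved the median of all genes to -0.37 and the genes at least 2-fold apart to 605 higher and 1559 lower; all 10 genes were below the all-gene median, whose place among them no scaling factor moves.

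**Figure D1:**
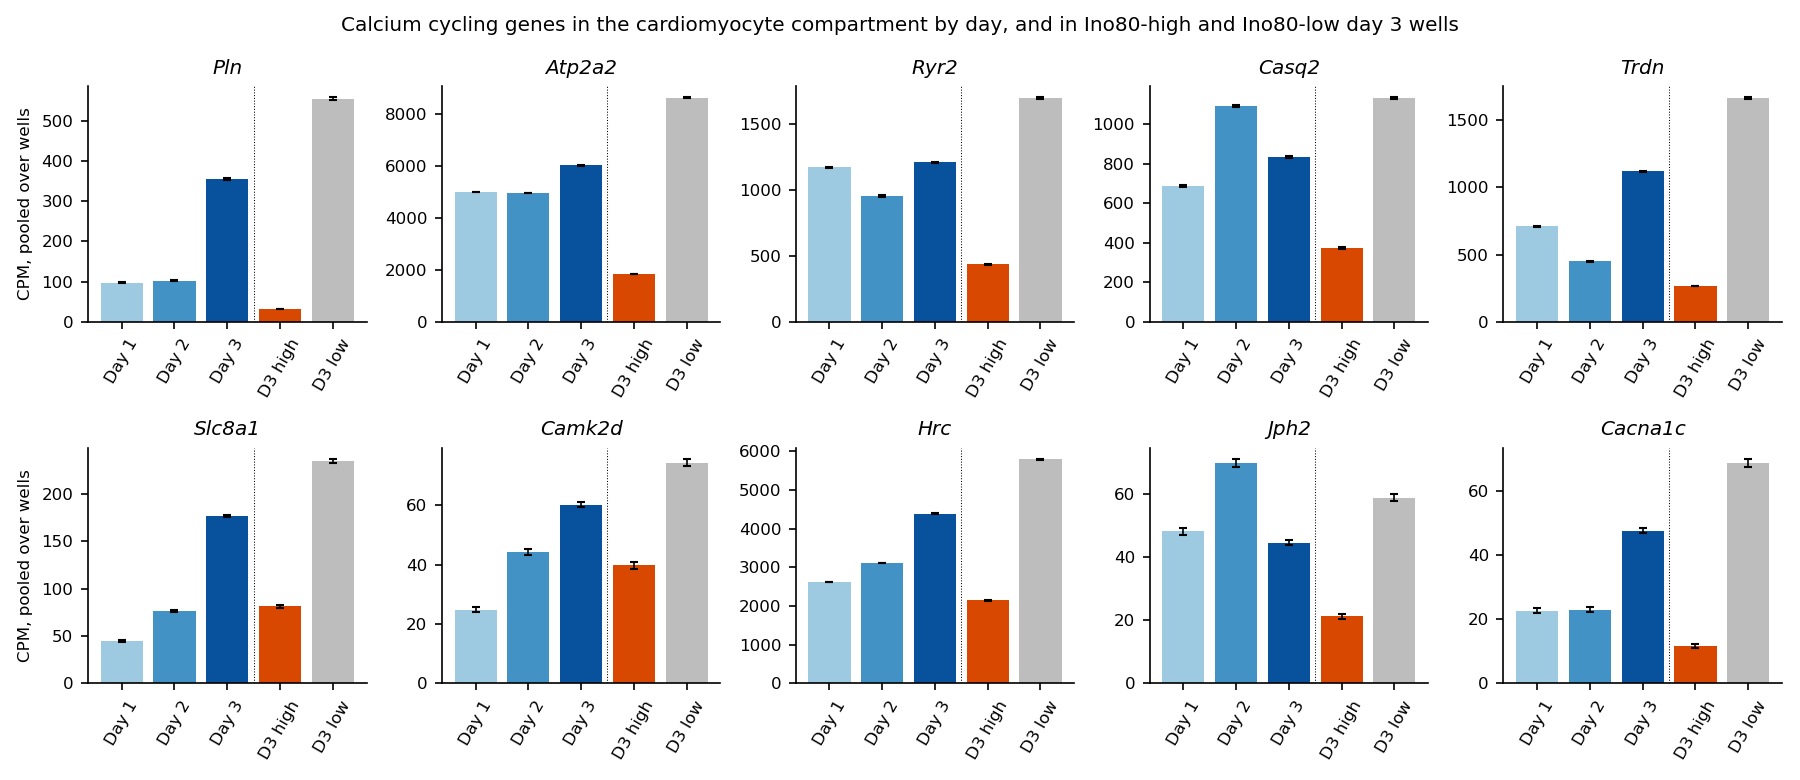
Level of each of the 10 genes in CPM (linear axis from 0, counts pooled over wells) on days 1, 2 and 3 and, right of the dotted line, in Ino80-high (D3 high) and Ino80-low (D3 low) day 3 wells; error bars are exact Poisson 95% intervals. Pln had 31.9 CPM in Ino80-high and 555 CPM in Ino80-low wells, and the orange bar is lower than the grey bar for every gene.

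Among the genes of calcium uptake, Pln had the widest gap of the 10. Pln encodes phospholamban, the small membrane protein that restrains SERCA2 until it is phosphorylated. It had 31.9 CPM (30.8 to 32.9) in Ino80-high wells and 555 CPM (551 to 558) in Ino80-low wells, 17.4-fold lower. Per well, the lowest, median and highest values were 0, 19.2 and 552 CPM in Ino80-high wells and 0, 505 and 1976 CPM in Ino80-low wells. The ranges overlapped, but only 1 of the 399 Ino80-high wells exceeded the median Ino80-low well. Of all measured genes, 0.217% had a lower log2 ratio than Pln.

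Atp2a2 encodes SERCA2, the pump that refills the store. It had 1839 CPM in Ino80-high and 8647 CPM in Ino80-low wells, 4.70-fold lower, with a log2 ratio of -2.23 (-2.24 to -2.23). The lowest, median and highest wells had 316, 1543 and 7723 CPM in the Ino80-high set and 162, 8190.1 and 24619.6 CPM in the Ino80-low set. No Ino80-high well exceeded the median Ino80-low well, although every well of both sets had counts of the gene. Pln was thus lower by a wider factor than the pump it restrains.

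Ryr2 encodes the ryanodine receptor, the channel through which the store releases calcium. It had 436 CPM in Ino80-high and 1693 CPM in Ino80-low wells, 3.89-fold lower. The lowest, median and highest wells had 0, 304 and 3543 CPM in the Ino80-high set and 0, 1593 and 5870.3 CPM in the Ino80-low set, so the ranges overlapped, and 18 of 399 Ino80-high wells exceeded the median Ino80-low well. Trdn encodes triadin, which anchors calsequestrin to that channel. Trdn had 267 CPM in Ino80-high and 1663 CPM in Ino80-low wells, 6.22-fold lower, the second widest gap of the 10. Its lowest, median and highest wells had 0, 201 and 1372 CPM in the Ino80-high set and 0, 1593 and 4051 CPM in the Ino80-low set, and no Ino80-high well reached the median Ino80-low well.

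The buffers of the store lumen differed less. Casq2, the cardiac calsequestrin, had 374 CPM in Ino80-high and 1132 CPM in Ino80-low wells, 3.03-fold lower. Hrc, the histidine-rich calcium-binding protein of the same lumen, had 2147 CPM in Ino80-high and 5791 CPM in Ino80-low wells, 2.70-fold lower. Per well, Casq2 ran from 0 to 2284 CPM with a median of 259 CPM in the Ino80-high set and from 81.1 to 4227 CPM with a median of 1093 CPM in the Ino80-low set. Hrc ran from 304 to 5580.0 CPM with a median of 2035 CPM in the Ino80-high set and from 81.1 to 11383 CPM with a median of 5656 CPM in the Ino80-low set. Of the Ino80-high wells, 24 of 399 exceeded the median Ino80-low well for Casq2 and none did so for Hrc. The narrower gap in pooled level of Hrc thus went with a cleaner separation of wells than that of Casq2. Hrc also had the higher median level per well in both sets, and the part of this in the separation was not tested.

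The trigger and exit routes of the surface membrane were also lower. Cacna1c encodes the pore of the L-type calcium channel and had 11.7 CPM in Ino80-high and 68.9 CPM in Ino80-low wells, 5.91-fold lower. Counts of Cacna1c were few per well, with a median of 0 and a highest well of 539.7 CPM in the Ino80-high set and a median of 20.97 and a highest well of 1027 CPM in the Ino80-low set. Slc8a1 encodes the sodium-calcium exchanger and had 81.2 CPM in Ino80-high and 235 CPM in Ino80-low wells, 2.89-fold lower. Its lowest, median and highest wells had 0, 14.1 and 1407 CPM in the Ino80-high set and 0, 162 and 1399.9 CPM in the Ino80-low set. For Slc8a1 the wells thus overlapped over the whole range, and 59 of 399 Ino80-high wells exceeded the median Ino80-low well.

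Jph2 encodes junctophilin 2, which ties the T-tubule to the sarcoplasmic reticulum, and had 21.3 CPM in Ino80-high and 58.9 CPM in Ino80-low wells, 2.77-fold lower, with a median of 4.89 CPM per Ino80-high well and 30.7 CPM per Ino80-low well. Camk2d encodes the delta chain of the calcium-calmodulin kinase, which phosphorylates phospholamban and the ryanodine receptor. It had 39.8 CPM in Ino80-high and 74.4 CPM in Ino80-low wells, a log2 ratio of -0.90 (-0.95 to -0.85), and was the 1 gene of the 10 less than 2-fold apart. Its wells ran from 0 to 801 CPM with a median of 3.49 CPM in the Ino80-high set and from 0 to 1691 CPM with a median of 24.9 CPM in the Ino80-low set. For Camk2d 113 of the 399 Ino80-high wells exceeded the median Ino80-low well, the most of any of the 10 genes.

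**Figure D2:**
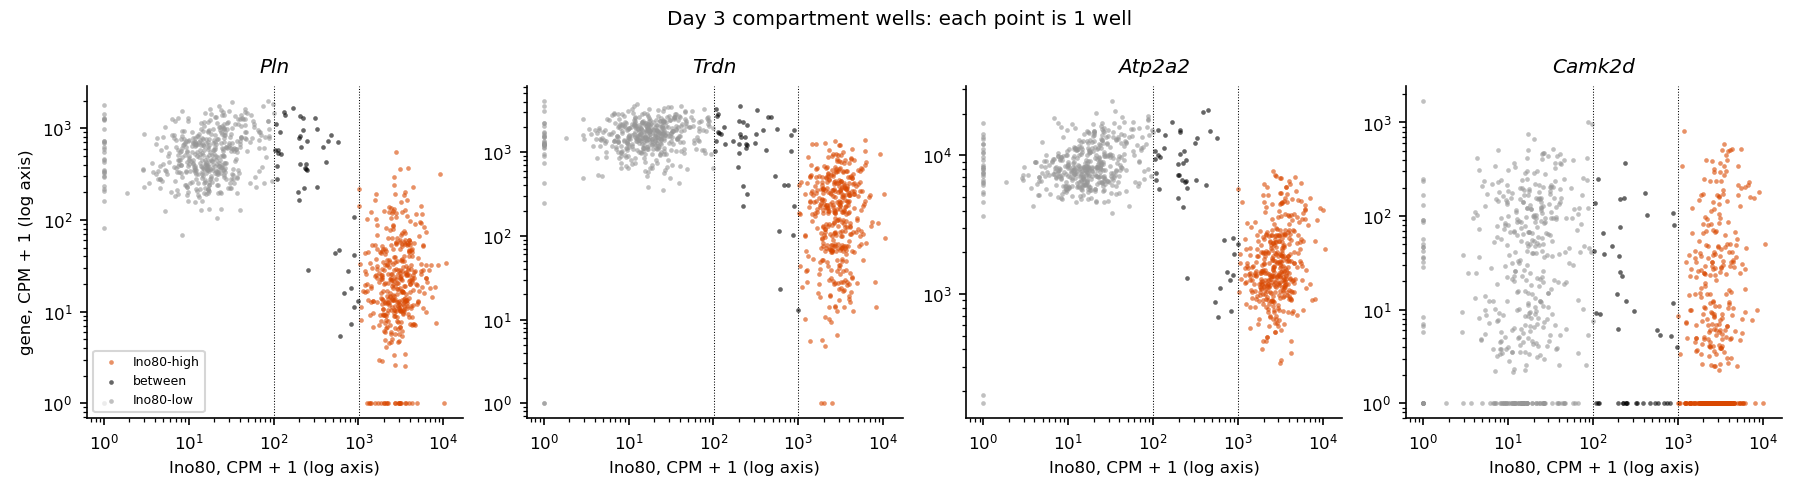
Each point is 1 day 3 compartment well, with Ino80 on the x axis and the gene on the y axis, both in CPM + 1 on log axes; orange wells are Ino80-high, black wells between, grey wells Ino80-low, and dotted lines mark 100 and 1000 CPM. Pln, Trdn and Atp2a2 lie in an upper grey and a lower orange cloud, whereas the clouds of Camk2d overlap along the whole axis.

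The ventricular markers moved in the same direction by less. Of the 12, 10 were lower in Ino80-high wells and 3 at least 2-fold lower, namely Myh6, the adult myosin heavy chain (-1.80), Ttn, titin (-1.68), and Actc1, cardiac actin (-1.43). Their median log2 ratio was -0.48, with a range of -1.80 to 0.27, and Tnnt2, cardiac troponin T, was at -0.66. Scaled to the mean log ratio of these 12 markers, a choice made after the data were seen, all 10 calcium cycling genes were still lower and 5 were at least 2-fold lower. Of the 11 other marker lists, that of atrial cardiomyocytes among them, 10 summed higher in the Ino80-high wells and 1, the mesothelial, lower. In Ino80-high wells the macrophage list summed to 233 CPM against 44.8 CPM, the erythroid list to 603 CPM against 193 CPM and the atrial list to 2528 CPM against 1159 CPM in Ino80-low wells. Of these 3 lists, 1 erythroid marker was at 0 in the Ino80-high wells and no other marker was at 0 in either set; the part of these differences in the result was not tested. By exonic length, the median log2 ratio was 0.28, 0.29, 0.28 and 0.17 from the shortest to the longest of 4 equal length classes of measured genes, and 5 of the 10 genes were in the longest class.

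**Figure D3:**
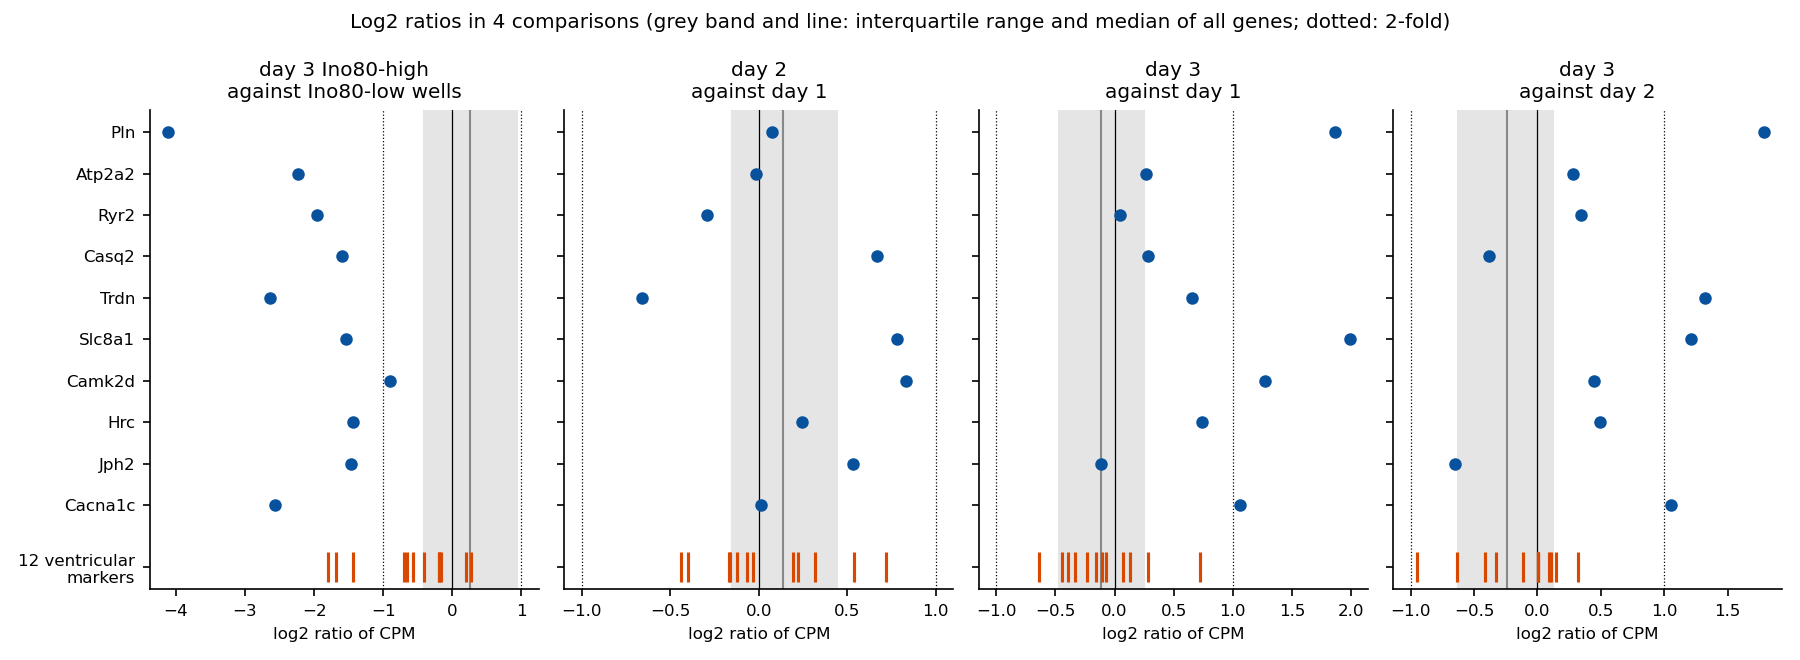
Log2 ratio of CPM (x axis) for each of the 10 genes (blue points) and the 12 ventricular markers (orange ticks) in the 4 comparisons, each with its own x range; the grey band and line are the interquartile range and the median of all measured genes, and dotted lines mark 2-fold. On day 3 the 10 genes lie from -4.12 to -0.90 in Ino80-high against Ino80-low wells, left of the band, whereas on day 2 against day 1 4 of them lie in the band (-0.15 to 0.44) and the other 6 on both sides of it.

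Other genes of calcium handling did not share one direction. Of 99 genes on 6 lists outside the 10, 73 had a mean of at least 5 CPM; in Ino80-high wells 6 were higher and 15 lower by 2-fold or more, where 24.8% of 7921 genes at that level were higher and 12.5% lower by as much. Their median log2 ratio was -0.04, and 44 of 73 were below the all-gene median.

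On the list of the release unit, 5 of 14 measured genes were below the all-gene median. Asph, whose locus encodes junctin, another anchor of calsequestrin at the release channel, had 40.5 CPM in Ino80-high and 282 CPM in Ino80-low wells, 6.97-fold lower. Srl, the luminal protein sarcalumenin, was 2.85-fold lower. Calm3, a calmodulin gene, had 323 CPM in Ino80-high and 116 CPM in Ino80-low wells, 2.78-fold higher, and Calm2 was 2.17-fold higher. Calmodulin binds calcium and regulates the ryanodine receptor, the L-type channel and the calcium-calmodulin kinase.

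Among regulators of uptake, Ppp1r3a, a targeting subunit of protein phosphatase 1, was 2.47-fold lower, with 39.3 CPM in Ino80-high and 96.8 CPM in Ino80-low wells. Sln, sarcolipin, an inhibitor of the calcium ATPase best known from atrium and skeletal muscle, had 1140 CPM in Ino80-high and 585 CPM in Ino80-low wells, a log2 ratio of 0.96. The 4 atrial-like wells of day 3, with 23737 CPM of Sln, were all in the Ino80-low set. Without atrial-like wells the sets held 399 Ino80-high and 440 Ino80-low wells, and the Sln ratio without them is not given here. Pln and Sln, both inhibitors of the pump, thus stood on opposite sides of 0. Of the 12 measured genes of this list, 7 were higher and 5 lower, where 39.4% of 7921 genes with a mean of at least 5 CPM were lower.

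For flux across the surface membrane, 9 of 10 measured genes were below the all-gene median, and the list median was -0.79. The subunits that join Cacna1c in the L-type channel were lower with it, Cacna2d1 3.47-fold and Cacnb2 3.06-fold. Ank2, the adaptor ankyrin-B that holds the exchanger in place, was 3.84-fold lower, and the cation channel Trpm4 3.14-fold lower. Atp2b4, a calcium ATPase of the surface membrane, was 3.25-fold higher, at the low levels of 8.12 CPM in Ino80-high and 2.50 CPM in Ino80-low wells.

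Of 11 measured genes on the list named for T-tubule and dyad, Tmem65 was 3.62-fold lower, Cmya5, which organises the dyad, 3.28-fold lower and Ehd1, a membrane-trafficking protein, 2.16-fold higher. The list name need not hold for each of its genes, Tmem65 among them. Of 16 measured genes of beta-adrenergic signalling and its kinases, 6 were lower and 1 higher by 2-fold or more. Those lower were the receptor Adrb1 (2.17-fold), the adenylyl cyclase Adcy6 (3.36-fold), the phosphodiesterases Pde3a (2.09-fold) and Pde4d (2.72-fold), and the kinase anchors Akap6 (2.04-fold) and Akap1 (2.56-fold). Prkar1a, a regulatory subunit of protein kinase A, was 2.30-fold higher. None of 10 measured genes of mitochondrial calcium uptake was 2-fold apart, with Vdac3, a channel of the outer membrane, at -0.82.

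**Figure D4:**
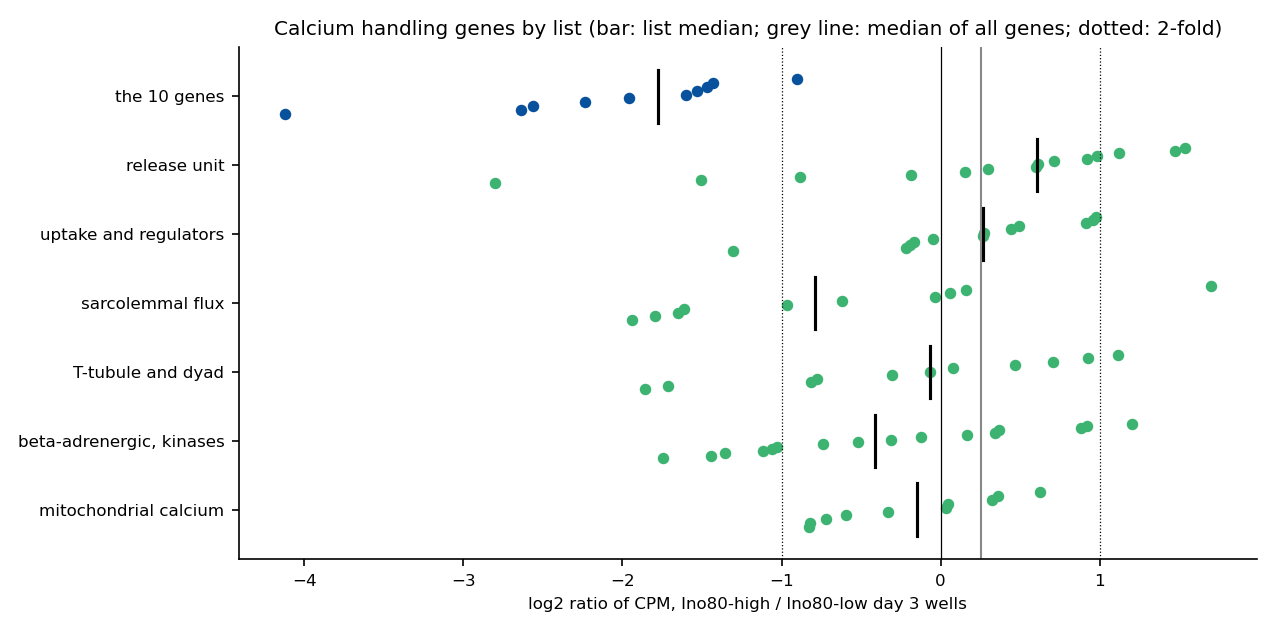
Log2 ratio of CPM in Ino80-high over Ino80-low day 3 wells (x axis) for the 10 calcium cycling genes (blue) and the measured genes of 6 other calcium handling lists (green); black bars are list medians, the grey line the median of all genes, and dotted lines mark 2-fold. The 10 genes lie from -4.12 to -0.90, whereas each of the other lists except that of mitochondrial calcium has genes beyond 2-fold, and only the release, surface flux, dyad and beta-adrenergic lists have them on both sides.

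Across bins of Ino80, the pooled day 3 levels were high in the 3 bins under 1000 CPM and low in the 2 bins above. Pln had 497, 584 and 564 CPM in wells with less than 10, 10 to 100 and 100 to 1000 CPM of Ino80, and 28.9 and 35.8 CPM in wells with 1000 to 3000 and at least 3000 CPM. Atp2a2 had 7803, 9074 and 8359.7 CPM in the first 3 bins and 1630.3 and 2119.9 CPM in the last 2. The bins held 131, 313, 46, 217 and 182 wells. The bin of 100 to 1000 CPM held wells of both levels: the lowest, median and highest Pln values were 27.8, 601 and 1678 CPM in its 34 wells under 500 CPM of Ino80 and 4.403, 21.8 and 706 CPM in its 12 wells at or over 500 CPM, a bound chosen after the wells were seen. For 9 of the 10 genes both upper bins were below each of the lower 3; Camk2d was the exception, with 53.4 CPM in the highest bin and 52.4 CPM in that of 100 to 1000 CPM. Within the Ino80-high and within the Ino80-low wells the direction was the opposite. Comparing the upper with the lower tercile of wells by Ino80 inside each set, 9 of the 10 genes were higher in the upper tercile of the Ino80-high wells, where 54.7% of all genes were higher, and 9 of 10 in the upper tercile of the Ino80-low wells, where 57.4% were. The median log2 ratios of the 10 genes were 0.40 and 0.32, against 0.06 and 0.10 for all genes. At least 2-fold higher were 1 gene in the Ino80-high set, Camk2d at 1.17, where 8.75% of genes were, and none in the Ino80-low set, where 7.99% were. Cacna1c was the exception in both, at -0.17 and -0.21. In the Ino80-low wells Ino80 was near the floor, with a median of 15.6 CPM per well and quartiles of 8.52 and 24.9 CPM. No count of Ino80 was found in 30 of these 444 wells, so few counts set their terciles. The median mitochondrial share was 21.2% in the upper and 18.8% in the lower tercile of the Ino80-high wells, and 24.8% in the upper and 21.2% in the lower tercile of the Ino80-low wells. Median counts per well were 312522 in the upper and 282990 in the lower tercile of the Ino80-high wells, and 357921 in the upper and 471806 in the lower tercile of the Ino80-low wells; the part of these in the result was not tested.

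The same held in the libraries of days 1 and 2, in which 89.9% and 97.5% of compartment wells had at least 1000 CPM of Ino80. On day 1 all 10 genes were higher in the upper tercile by Ino80 (191 wells) than in the lower tercile (191 wells), and 3 were at least 2-fold higher, where 64.0% of all genes were higher and 17.9% by that much; 1 of the 10 was lower with mitochondrial counts in the total, by median of ratios or scaled to the ventricular markers. On day 2 all 10 were again higher (211 wells each), and 5 were at least 2-fold higher, where 66.6% of genes were higher and 19.6% by that much; under the same 3 scalings 3, 2 and 1 of the 10 were lower. Ryr2 had 1894 CPM in the upper and 721 CPM in the lower tercile on day 1, and 1356 CPM in the upper and 535 CPM in the lower tercile on day 2. Pln differed little, with 111 CPM in the upper and 88.1 CPM in the lower tercile on day 1, and 103 CPM in the upper and 94.4 CPM in the lower tercile on day 2. Trdn had log2 ratios of 0.04 on day 1 and 0.25 on day 2, so the genes with the widest gaps on day 3, Pln and Trdn, had narrow ones on days 1 and 2.

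The mitochondrial share moved with Ino80 in these libraries. Its median was 44.4% in the upper and 38.6% in the lower tercile on day 1, and 48.8% in the upper and 25.6% in the lower tercile on day 2. Among wells with 25 to 35% mitochondrial counts, 8 of the 10 genes were higher in the upper tercile on day 1 (28 wells each) and 8 of 10 on day 2 (41 wells each), where 56.7% and 55.1% of all genes were higher. Those lower were Slc8a1 (-1.50) and Trdn (-0.32) on day 1 and Camk2d (-1.70) and Trdn (-0.21) on day 2. On day 3 itself, the upper tercile had all 10 genes lower than the lower tercile, 9 of them at least 2-fold, where 38.7% of genes were lower and 10.8% by that much; these terciles fall on either side of the gap.

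**Figure D5:**
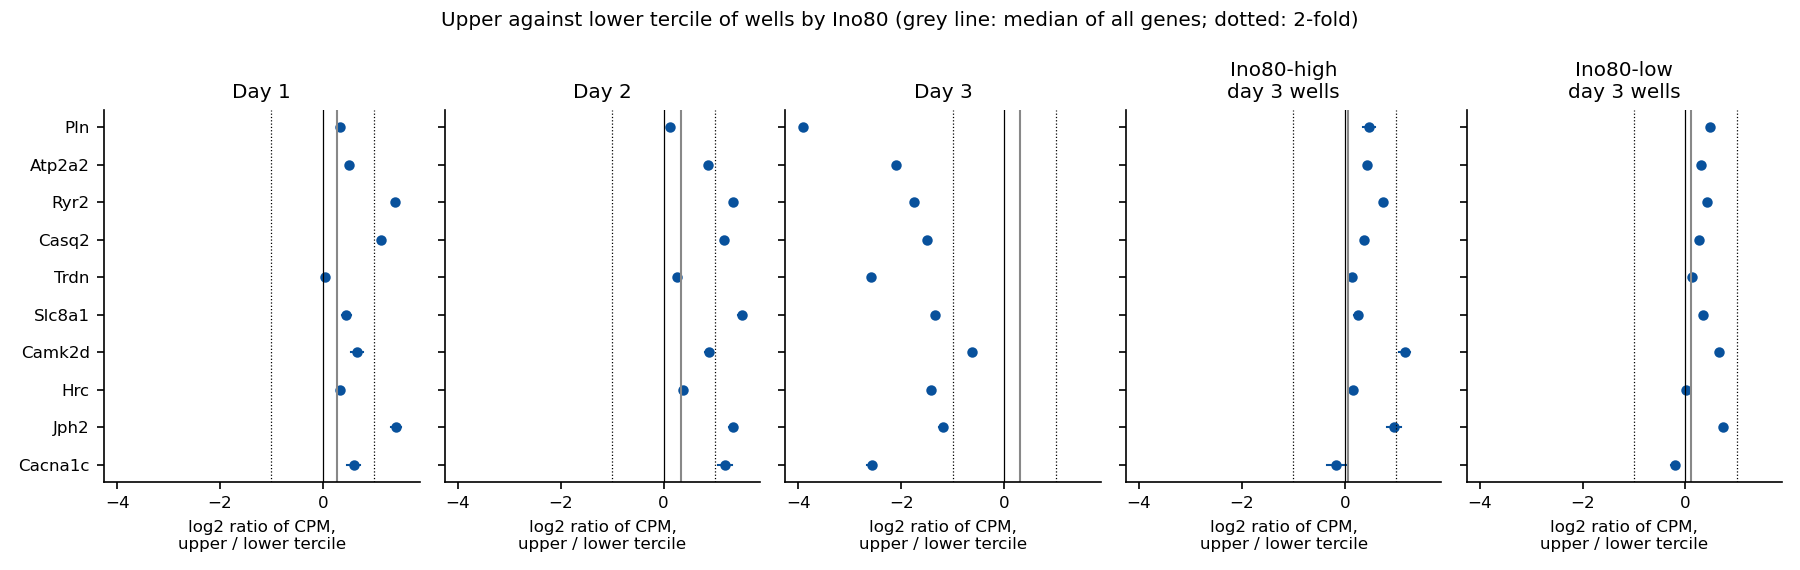
Log2 ratio of CPM in the upper over the lower tercile of wells by Ino80 (x axis) for the 10 genes on each day and inside the Ino80-high and Ino80-low day 3 wells; lines are exact 95% intervals, the grey line is the median of all genes, and dotted lines mark 2-fold. All points lie right of 0 on days 1 and 2 (1 to 3 of 10 do not under other scalings) and left of 0 on day 3, whereas inside each of the day 3 sets 9 of 10 lie right of 0.

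Between days, the 10 genes changed little on day 2 against day 1. None was 2-fold apart, where 4.56% of 6441 genes were higher and 1.75% lower by as much; 7 were higher and 3 lower, where 62.9% of genes were higher and 37.1% lower. Camk2d had 44.3 CPM on day 2 and 24.9 CPM on day 1, and Slc8a1 76.4 CPM on day 2 and 44.5 CPM on day 1. Trdn had 449 CPM on day 2 and 709.7 CPM on day 1. Those 3 genes differed most, with Casq2. Atp2a2 had 4962 CPM on day 2 and 5013 CPM on day 1, and Pln 103 CPM on day 2 and 97.5 CPM on day 1, log2 ratios of -0.01 and 0.08. Direction held under all 13 alternatives for 5 of the 10 genes. Among wells with 25 to 35% mitochondrial counts, Slc8a1 was lower on day 2 (-1.11) and so was Cacna1c (-1.75). Pln ran from -0.11 to 0.11 over the alternatives, and Atp2a2 and Hrc also changed sign.

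On day 3 against day 1, 9 of the 10 genes were higher and 4 at least 2-fold, where 41.0% of 6159 genes were higher and 4.98% by that much. Slc8a1 had 177 CPM on day 3 and 44.5 CPM on day 1, and Pln 355 CPM on day 3 and 97.5 CPM on day 1. Camk2d was 2.42-fold and Cacna1c 2.09-fold higher on day 3, whereas Jph2 had 44.7 CPM on day 3 and 48.4 CPM on day 1, a direction that turned under 3 alternatives, as that of Ryr2 did under 2. Relative to day 2, on day 3 Pln was 3.46-fold, Trdn 2.50-fold, Slc8a1 2.31-fold and Cacna1c 2.07-fold higher, 4 of the 10, where 3.03% of 6307 genes were at that fold. By any amount 8 of 10 were higher, where 32.9% of genes were. Casq2 (-0.38) and Jph2 (-0.65) were lower on day 3 than on day 2, but higher among wells with 25 to 35% mitochondrial counts (0.97 and 1.04). On day 3 that band held 43 Ino80-high and 83 Ino80-low wells, against 399 and 444 in the compartment. The part of this mix in the turn of direction was not tested. The genes at least 2-fold apart were 307 higher and 368 lower on day 3 against day 1, but 533 higher and 77 lower with mitochondrial counts in the total; against day 2 they were 191 higher and 553 lower, but 345 higher and 98 lower with them. These comparisons share the day 3 library, and in each 8 of the 10 genes had the same direction under all 13 alternatives.

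The day 3 level of each gene pools wells of both sets. In the Ino80-low day 3 wells, all 10 genes were higher than on day 1, 6 of them at least 2-fold, where 34.4% of genes were higher and 3.89% by that much. Against day 2, 9 were higher and 4 at least 2-fold, where 27.9% of genes were higher and 3.52% by that much. Pln was 5.69-fold higher in these wells than on day 1 and 5.39-fold higher than on day 2. The 12 ventricular markers had median log2 ratios of 0.01 against day 1 and 0.25 against day 2.

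Set against wells of the same Ino80 range, the Ino80-high day 3 wells were lower for most of these genes. Among wells with at least 1000 CPM of Ino80, there were 399 on day 3, 517 on day 1 and 618 on day 2, and pooled Ino80 was 3037 CPM on day 3, 3147 CPM on day 1 and 5113 CPM on day 2. On day 3 against day 1, 8 of the 10 genes were lower and 6 at least 2-fold lower, where 52.2% of genes were lower and 13.5% by that much. Against day 2, 9 were lower and 5 at least 2-fold lower, where 58.2% were lower and 14.8% by that much. Pln had 31.9 CPM on day 3, 99.9 CPM on day 1 and 104 CPM on day 2. Atp2a2 had 1839 CPM on day 3, 5130.0 CPM on day 1 and 5030.4 CPM on day 2. Slc8a1 and Camk2d went the other way against day 1: Slc8a1 had 81.2 CPM on day 3 and 43.4 CPM on day 1, and Camk2d 39.8 CPM on day 3 and 24.8 CPM on day 1. Ttn (-1.72) and Myh6 (-1.60) were lower in the day 3 wells as well, Tnnt2 was at -0.15, and the median mitochondrial share was 19.6% on day 3 and 41.2% on day 1; the part of these in the result was not tested. Day and library cannot be told apart in these values.

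Other calcium handling genes between days were led by Sln. It had 3993, 72.3 and 793 CPM on days 1, 2 and 3. Day 1 held 22 atrial-like wells with 46218 CPM of Sln, and without atrial-like wells the levels were 1414, 72.3 and 691 CPM. The atrial marker list, which holds Sln, summed to 2602, 132 and 2006 CPM in macrophage-like wells on days 1, 2 and 3. It summed to 2748, 149 and 1184 CPM in fibroblast-like and to 2700, 222 and 511 CPM in endothelial-like wells. The part of RNA from atrial cells in the remaining Sln levels was not tested. On day 2 against day 1, Ryr1 (3.05-fold), Itpr1 (2.24-fold) and Jsrp1 (2.17-fold) of the release list and Adrb1 (2.20-fold) and Pde3a (2.03-fold) were higher. Against day 1, day 3 had Asph (2.14-fold), Ppp1r3a (2.17-fold), Cacnb2 (2.48-fold), Adrb1 (2.56-fold) and Pde3a (2.28-fold) higher, and Ppp1r1a (2.71-fold), Dmpk (2.10-fold), Cacna1g (2.06-fold) and Stim1 (2.11-fold) lower. Against day 2, day 3 had Rrad 2.01-fold higher, and Ryr1 (3.21-fold), Ppp1r1a (2.06-fold), Camk2g (2.20-fold) and Grk2 (2.13-fold) lower. In all, 6, 10 and 6 of the listed genes were at least 2-fold apart on day 2 against day 1, on day 3 against day 1 and on day 3 against day 2, out of 77, 75 and 76 measured. Of all genes at that level, 6.20% were higher and 2.95% lower by 2-fold or more on day 2 against day 1, 5.65% higher and 7.95% lower on day 3 against day 1, and 3.59% higher and 11.0% lower on day 3 against day 2.

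Wells named for other cell types held these transcripts too. In macrophage-like wells the 10 genes had a median of 75.1%, 72.5% and 66.2% of their compartment level on days 1, 2 and 3, and in fibroblast-like wells 90.4%, 81.1% and 82.8%. Median counts per well were 309545 to 352290 in macrophage-like wells and 349782 to 361709 in the compartment. In the 14 endothelial-like wells of day 3 the median was 103%, after 83.3% and 74.6% on days 1 and 2, and Casq2 reached 112%. Of those 14 wells 11 were Ino80-low and 1 Ino80-high, whereas the day 3 compartment held 444 Ino80-low and 399 Ino80-high wells. The part of this mix in the 103% was not tested. Levels in the erythroid-like, mesothelial-like and neutrophil-like wells, 2 to 25 wells a class and day, were not computed. The part of RNA from other wells or cells in the compartment's values was not tested. The day 3 gap was present in these wells as well. In macrophage-like wells Pln had 23.7 CPM in 42 Ino80-high wells and 345 CPM in 29 Ino80-low wells, 14.5-fold lower, and all 10 genes were lower, where 38.6% of 6237 genes were. In fibroblast-like wells Pln had 25.3 CPM in 31 Ino80-high wells and 562 CPM in 39 Ino80-low wells, 22.2-fold lower, and again all 10 were lower, where 40.1% of 6361 genes were. The smallest difference of the 10 was in Jph2 in macrophage-like wells, at -0.48.

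Over wells, the genes most like these were other abundant cardiomyocyte genes. For each of the 10, the 3 genes with the highest mean Pearson correlation of log2(CPM + 10) over the 3 libraries were found among 3557 genes, and all came from Ttn, Myh6, Atp2a2 and Lpl, which encodes lipoprotein lipase. Atp2a2 had a mean r of 0.68 with Lpl, 0.67 with Ttn and 0.61 with Myh6, and Ryr2 0.64 with Ttn. These means include the day 3 r taken over both Ino80 sets, so the ranking rests in part on that split. For Atp2a2 with Myh6, r was 0.52, 0.46 and 0.85 on days 1, 2 and 3. For Pln and Atp2a2, r was 0.15, 0.26 and 0.85 in 575, 634 and 889 wells on days 1, 2 and 3, and it was 0.30 among Ino80-high and 0.55 among Ino80-low wells, so the day 3 value spans both sets. Over the 45 pairs of the 10 genes the median r was 0.10 in Ino80-high and 0.21 in Ino80-low wells, 0.12 on day 1 and 0.16 on day 2. The highest pair in the Ino80-low wells was Ryr2 with Atp2a2 at 0.59. These wells share a library and differ in depth, the counts of several of the genes are sparse, and no p-value is given for them.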

How the data were processed

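The deposited tables hold raw counts of reads per gene and well, whole numbers with no normalization by the authors, for 3 libraries; the submitters' processing notes name cutadapt, STAR, featureCounts and mm10, and what strand setting or versions were used, and whether duplicates were collapsed, is not given in the sources used here. Reads carry no molecular identifier in the tables, so PCR copies may be counted and intervals cover counting error only. Gene symbols came from GENCODE M21. Wells with at least 1000 counts and 300 detected genes were kept (3376 of 3394) and clustered together in scanpy 1.11.5 (2000 variable nuclear genes, 30 components, 15 neighbours, Leiden resolution 0.5, seed 0). A cluster was named when at least 3 markers of a type were at least 2-fold above other wells at 20 CPM or more; these thresholds were set after a clustering had been seen. Doublets were not called, since wells were chosen by imaging.

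Counts were summed over wells and divided by the nuclear-encoded total. CPM has exact Poisson, log2 ratios exact binomial-split and shares Clopper-Pearson 95% intervals; ratios to a group without counts used a floor of 3 counts. All genes means those with a mean of at least 10 CPM over both sides, and listed genes needed 5 CPM. Near the Ino80 bounds lay 45 wells with 50 to 200 CPM and 95 with 500 to 2000 CPM. The ratio step was tested on simulated data. Named beside the 10 genes are, of each calcium list, the genes at least 2-fold apart and the highest and lowest, the ventricular markers and, per gene, the 3 most alike over wells. Some genes this rule names are not reported here. The members and lists were chosen with earlier results of these data known. The comparisons by terciles inside the day 3 sets, and those between Ino80-high or Ino80-low day 3 wells and other days, were chosen after the data were seen. Of 17 alternatives, 16 were planned.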

Additional observations from a re-analysis of the deposited data

Results flagged for a closer look

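Along Ino80 the 10 calcium cycling genes stood on opposite sides on different days. On day 1 and on day 2, 0 of the 10 were lower in the upper tercile of wells by Ino80 (1 to 3 under other scalings), where 36.0% and 33.4% of all genes were lower and the all-gene medians were 0.27 and 0.34. On day 3 all 10 were lower there, where 38.7% of genes were. The day 3 terciles fall in different sets of wells, and inside the Ino80-high and inside the Ino80-low wells 9 of 10 genes were higher in the upper tercile. Most genes were thus on the same side as on days 1 and 2, but terciles of the Ino80-low wells rest on few Ino80 counts per well. The difference between days was not tested, and Trdn on day 1, at a log2 ratio of 0.04, and Pln on day 2, at 0.13, were the nearest to 0.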

How the results depend on the processing

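For Ino80-high against Ino80-low day 3 wells, all 10 genes were lower under all 15 alternatives, with Pln from -4.70 to -3.51 and Camk2d from -1.48 to -0.29. The 9 genes at least 2-fold apart became 5 when scaled to the 12 ventricular markers. Given as higher and lower, the 1385 and 697 genes at least 2-fold apart became 605 and 1559 by median of ratios, 2814 and 286 scaled to the markers, 436 and 263 at a mean of 50 CPM, and 12103 and 3936 without a filter, which admits genes with 1 count.

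On day 2 against day 1, 0 of the 10 genes 2-fold apart became 1 without atrial-like wells and 2 among wells with 25 to 35% mitochondrial counts; 6 listed genes became 3 with per-well CPM averaged and 10 in that band. All genes, 294 and 113, became 188 and 65 with mitochondrial counts in the total, 731 and 617 in the band, 51 and 16 at 50 CPM and 6797 and 7360 without a filter, and the 294 higher became 190 with all kept wells.

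On day 3 against day 1, 4 genes became 2 with per-well CPM averaged and 7 in the band; 10 listed genes became 18 with mitochondrial counts and 25 in the band. All genes, 307 and 368, became 533 and 77 with mitochondrial counts, 927 and 671 in the band, 90 and 56 at 50 CPM and 5124 and 11214 without a filter, and the 368 lower became 234 by median of ratios. On day 3 against day 2, 4 genes became 8 and 6 listed genes 27 in the band. All genes, 191 and 553, became 345 and 98 with mitochondrial counts, 305 and 267 by median of ratios, 66 and 86 at 50 CPM and 5194 and 9455 without a filter; the 191 higher became 770 in the band and the 553 lower became 330 scaled to the markers. The band holds 84, 125 and 137 wells on days 1, 2 and 3. On day 3 it has 43 Ino80-high and 83 Ino80-low wells, against 399 and 444 in the compartment, so it also changes the mix of the 2 sets.

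Along Ino80, genes lower in the upper tercile, 0 of 10 on day 1, became 1 with mitochondrial counts, by median of ratios, scaled to the markers, with per-well CPM averaged, with all kept wells and with 1000 variable genes, and 2 in the band. On day 2, 0 became 3 with mitochondrial counts, 2 by median of ratios, 1 scaled to the markers, 1 with thinned wells and 2 in the band. On day 3, 10 became 1 inside the Ino80-high and 1 inside the Ino80-low wells. The cause of these moves was not tested. No paired analysis was possible because each group is 1 library.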
